A study of Mus musculus with 6 samples.

Results

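Nuclear-encoded subunits of the respiratory chain were examined in mouse melanoma cells with and without Spp1, the gene for the secreted phosphoprotein osteopontin. Members were chosen by gene symbol, as names that begin with Ndufa, Ndufb, Ndufc, Ndufs, Ndufv, Uqcr, Cox4 to Cox8 or Atp5, together with Sdha, Sdhb, Sdhc and Sdhd. The pattern matched 90 rows of the deposited table, 3 pseudogene names were left out, and 87 members remained of 19213 genes. Of these, 84 passed the filter on low values and were tested, and Cox6a2, Cox7a1 and Ndufa4l2 did not pass it. The pattern also takes in 7 Ndufaf assembly factors and Atp5s and Atp5sl, which are kept apart from the subunits below.

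The 3 Spp1 knockout samples carried an Spp1 knockout made with CRISPR-Cas9, and the 3 control samples carried a non-targeting control. PolyA-selected RNA was sequenced as paired-end libraries, and all 6 samples belonged to 1 batch, per the labels. B16F10 is a metastatic mouse melanoma line, but the labels give each sample a line name of its own (control B16F10, B16F11 and B16F12, knockout B16F13, B16F14 and B16F15), and any difference between such cells and the effect of the knockout cannot be told apart. The sources used here do not say if the knockout was 1 clone or a pool, and the spread behind the p-values, which is that of these samples, may be technical.

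The respiratory chain sits in the inner mitochondrial membrane, where complexes I and II pass electrons from NADH and succinate to coenzyme Q, complex III passes them on to cytochrome c, and complex IV passes them to oxygen. Complexes I, III and IV pump protons, and complex V, the ATP synthase, uses the proton gradient to make ATP. Most subunits are encoded in the nucleus and imported, while a small core of complexes I, III, IV and V is encoded by mitochondrial DNA. Promoters of the nuclear genes are known for sites of NRF1, of the ETS family protein GABP and of YY1, and coactivators of the PGC-1 family act through such factors.

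Short promoter stretches are shown because the members are spread over many chromosomes and are known as targets of shared factors, and because higher and lower members are set side by side. Each runs from 150 bases before to 30 bases after the annotated start of the gene, 5′ to 3′ on the strand of the gene, from RefSeq on GRCm38.p6, with the motif match in capitals. Atp5o (chr16:91931601-91931780, minus strand), which was higher in knockout, and Atp5g2 (chr15:102671018-102671197, minus strand), which was lower, each hold the NRF1 motif, which is GCGCA, any base and then GCGC, on the opposite strand in Atp5o. Cox8a (chr19:7217587-7217766, minus strand), which was higher, and Uqcr11 (chr10:80406792-80406971, minus strand), which was lower, each hold the ETS motif CCGGAAG, on the opposite strand in Cox8a. Atp5b (chr10:128083157-128083336, plus strand), which was lower, holds the YY1 motif AANATGGCG on the opposite strand.
Atp5o: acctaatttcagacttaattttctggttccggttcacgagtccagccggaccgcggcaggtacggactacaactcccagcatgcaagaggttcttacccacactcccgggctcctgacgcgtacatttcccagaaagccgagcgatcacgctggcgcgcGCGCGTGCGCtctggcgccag
Atp5g2: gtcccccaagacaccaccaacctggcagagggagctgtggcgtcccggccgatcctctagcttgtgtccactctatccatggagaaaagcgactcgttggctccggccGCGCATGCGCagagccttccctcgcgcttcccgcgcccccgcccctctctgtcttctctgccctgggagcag
Cox8a: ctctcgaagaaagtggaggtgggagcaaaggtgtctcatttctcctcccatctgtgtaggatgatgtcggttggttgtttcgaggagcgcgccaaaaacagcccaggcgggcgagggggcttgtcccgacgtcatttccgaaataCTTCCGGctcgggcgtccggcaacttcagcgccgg
Uqcr11: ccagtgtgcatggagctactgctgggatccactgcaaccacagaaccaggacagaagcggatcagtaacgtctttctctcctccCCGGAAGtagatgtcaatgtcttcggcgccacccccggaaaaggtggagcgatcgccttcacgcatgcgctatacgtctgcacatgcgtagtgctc
Atp5b: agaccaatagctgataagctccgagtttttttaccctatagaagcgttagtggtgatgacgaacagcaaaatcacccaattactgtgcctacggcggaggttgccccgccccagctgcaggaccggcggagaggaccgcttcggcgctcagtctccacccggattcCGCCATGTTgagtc

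Over windows of 250 bases before to 50 bases after the start, searched on both strands, 56.9% of the 72 tested members found in the RefSeq table held at least 1 of the 3 motifs. The share was 33.1% of the 10244 tested genes found there and 15.9% of all 27025 promoters of the table. The NRF1 motif was in 26.4% of members and 11.6% of tested genes, the ETS motif in 23.6% and 20.4%, and the YY1 motif in 15.3% and 5.97%. At least 1 motif was found in 9 of the 16 matched members that were higher in knockout and in 14 of the 25 that were lower, which is 56.2% and 56.0%. Among those 16 and 25 members the NRF1 motif was in 5 and 5, the ETS motif in 3 and 3, and the YY1 motif in 2 and 7. A match is a description of these letters only.

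Depth was 75438190 to 80206796 reads in listed genes per Spp1 knockout library and 72717465 to 94314770 per control library, and the lowest count of a tested member was 577 reads. Values below are scaled reads, which are reads divided by the authors' DESeq size factor of each library. Spp1 had 2, 2 and 4 reads in the knockout libraries and 143, 175 and 178 in the control libraries, and fell by 5.41 ± 0.25 on the log2 scale (SE, adjusted p = 8.98e-11 in limma). All 7 melanocyte and melanoma markers were in the table. Their summed level was 1059660 to 1070430 scaled reads in the knockout libraries and 898571 to 914819 in the control libraries. The sum hides different directions, as 4 were higher (57.1%, against 34.4% of all genes) and 1 lower (14.3%, against 28.6%). The lower one, Tyr, averaged 20055 scaled reads in knockout and 29433 in control, and Mitf and Sox10 did not pass. Of the 14 markers of fibroblasts, leukocytes, endothelium and keratinocytes, 6 were in the table, with sums of at most 149.6 scaled reads per cell type in knockout and 241.3 in control, and Dcn, Lum, Ptprc, Adgre1, Cdh5, Kdr, Krt5 and Krt10 were not listed. Of these, Pdgfra averaged 135.6 scaled reads in knockout and 222.9 in control, and Cd68 averaged 47.7 in knockout and 106.6 in control, and the part of other cell types in the results below was not tested. In bulk RNA, fewer cells of a type and less RNA per cell cannot be told apart.

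Control 3 stood apart for these genes. It was the lowest of the 3 control libraries in 66 of 84 tested members, or 78.6%, against 30.4% of all genes, and its median deviation from the control mean was -0.05 over members and 0.01 over all genes (log2). Knockout libraries lay closer together, with median deviations of -0.02 to 0.02 over members. Knockout 2 was the highest of them in 47 of 84 tested members and the lowest in 5 (5.95%, against 25.9% of all genes). Counts of calls and medians without control 3 are given beside those of all members and of each complex.

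The respiratory chain did not move as a block. Of 84 tested members, 51 passed the threshold of an adjusted p of 0.05 (limma, 3 against 3 libraries), which is 60.7% against 63.0% of all 15307 genes tested. Higher members numbered 21, or 25.0% against 34.4% of all genes, and lower members numbered 30, or 35.7% against 28.6% of all genes. The median log2 change of members was -0.03 against 0.03 over all genes tested, and the median size of change, whatever its sign, was 0.13 against 0.25. Without control 3 the count was 59 members, 21 higher and 38 lower, with a median of -0.06, which is 70.2% of members against 62.0% of all genes (5237 higher and 4073 lower).

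Most changes were small. Against a change of at least 1.2-fold, a test added after the data were seen, 2 members were higher (2.38%, against 10.3% of all genes). On the lower side 16 of 84 members passed this test, a larger share than the 14.2% of all genes. The 2 higher members were Ndufb10 and Atp5o. All 3 knockout libraries lay above all 3 control libraries in 21 members (against 36.3% of all genes) and below them in 28 (against 30.8% of all genes), together 58.3% of members, against 67.1% of all genes. Scaling every library to the same total gave 17 higher and 37 lower members, and 4473 higher and 5034 lower genes in all. With edgeR on recovered reads of 5 libraries, without knockout 2, the numbers were 14 and 32 members and 4304 and 4575 genes. With DESeq2 on those reads they were 14 and 31 members and 4110 and 4013 genes. Over all genes, lower calls thus outnumbered higher ones with equal totals and edgeR, but not with DESeq2.

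**Figure D1:**
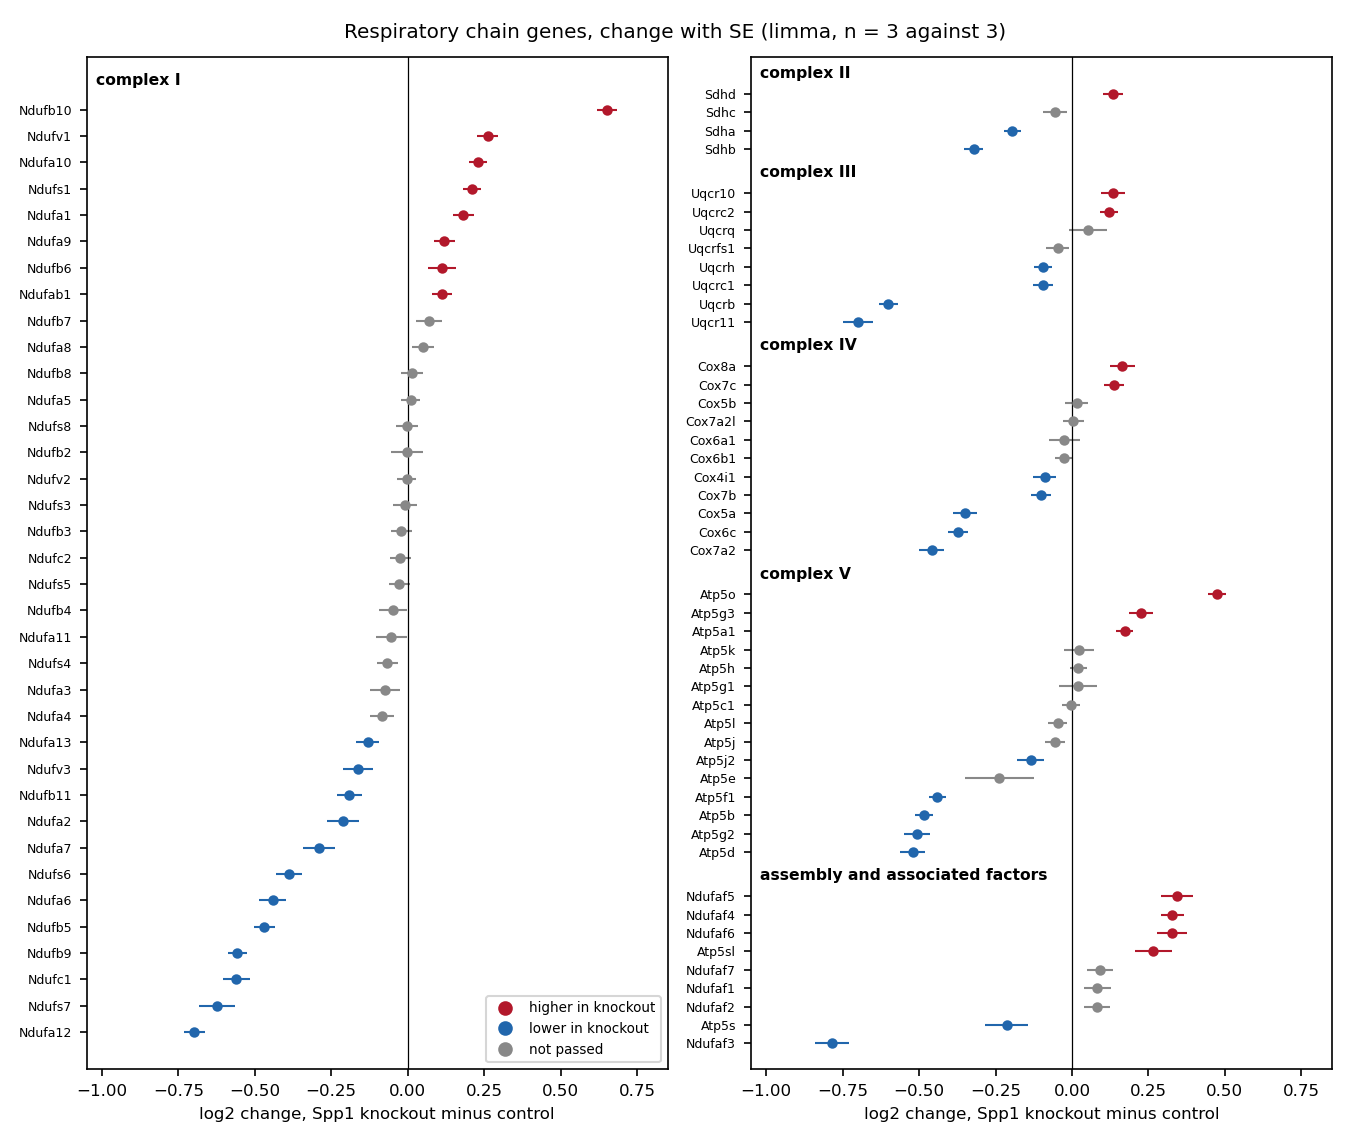
Log2 change of the tested genes, Spp1 knockout minus control, with its SE from limma (3 libraries in each group), grouped by complex. Changes run from -0.78 for Ndufaf3 to 0.65 for Ndufb10, and every complex holds higher and lower genes.

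Complex I, the NADH dehydrogenase, had 37 tested subunits, of which 9 were higher, 12 lower and 16 did not pass. Higher and lower shares were 24.3% and 32.4%, against 34.4% and 28.6% of all genes. The median log2 change was -0.03. Without control 3, 8 were higher and 16 lower, with a median of -0.05. Among the 7 core subunits, which carry the flavin and the iron-sulfur clusters, 3 were higher (42.9%) and 1 was lower (14.3%). Among the 30 tested accessory subunits, 6 were higher (20%) and 11 lower (36.7%), against 34.4% and 28.6% of all genes. Ndufv1 at 0.26 and Ndufs1 at 0.21 (log2), named after their values were seen, were among the higher core subunits.

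Ndufs7, the core subunit next to the coenzyme Q site, had 3306, 3387 and 3349 scaled reads in the knockout libraries and 5705, 5175 and 4647 in the control libraries. Ndufs7 fell by 0.62 ± 0.06 on the log2 scale (SE, limma adjusted p = 1.68e-06), with all knockout libraries below all control libraries and the control libraries spread more widely. Ndufa12, an accessory subunit near the iron-sulfur arm, had 7697, 8111 and 7765 scaled reads in knockout and 12607, 12398 and 13239 in control. Ndufa12 fell by 0.70 ± 0.03 (log2, limma adjusted p = 1.85e-10), the lowest change of a complex I subunit. Ndufb10, an accessory subunit of the membrane arm, went the other way, with 8078, 8349.9 and 7927 scaled reads in knockout and 5205, 5117 and 5176 in control. Ndufb10 rose by 0.65 ± 0.03 (log2, limma adjusted p = 1.94e-10), and the groups were far apart.

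Ndufa4 carries a complex I name but is known in human cells as a subunit of complex IV. It had 46484, 47477 and 47474 scaled reads in the knockout libraries and 51767, 51881 and 46459 in the control libraries. The groups overlapped through control 3, and its log2 change of -0.08 ± 0.04 did not pass (limma adjusted p = 0.0744). Ndufa4 passed as lower without control 3 (-0.14, limma adjusted p = 0.000277), and also with TMM, with equal totals, in edgeR and in DESeq2, but net of its chromosomal neighbours, described below, it was higher (0.13). Its paralog Ndufa4l2, known to be induced by low oxygen, was almost absent, with 8.37, 1.98 and 2.93 scaled reads in knockout and 15.7, 7.15 and 8.95 in control, and was not tested.

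Complex II, succinate dehydrogenase, is wholly nuclear-encoded, and 2 of its 4 subunits were lower, 1 was higher and 1 did not pass, with a median log2 change of -0.13. That is 25% higher and 50% lower, against 34.4% and 28.6% of all genes. Sdha, the flavoprotein, had 19461, 19890.0 and 19691 scaled reads in knockout and 22346, 22472 and 22774 in control, and fell by 0.20 ± 0.03 (log2, limma adjusted p = 2.24e-05). Sdhb, the iron-sulfur subunit, had 33702, 34918 and 33565 scaled reads in knockout and 43381, 43258 and 41046 in control. Sdhb fell by 0.32 ± 0.03 (log2, limma adjusted p = 3.53e-07), and neither catalytic subunit had overlapping groups.

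Sdhc and Sdhd anchor complex II in the membrane. Sdhc had 7319, 7759 and 7885 scaled reads in knockout and 8114, 8229 and 7519 in control, groups that overlapped, with a log2 change of -0.05 ± 0.04 (limma adjusted p = 0.251). Sdhd had 21228, 21549 and 22479 scaled reads in knockout and 20126, 20235 and 19118 in control. Sdhd rose by 0.13 ± 0.03 (log2, limma adjusted p = 0.0026), with every knockout library above every control library. Sdhc passed as lower with equal totals. Without control 3, Sdhc passed as lower, 3 of the 4 subunits were lower, and the median was -0.14.

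Complex III, the cytochrome bc1 complex, had 8 tested subunits, of which 2 were higher, 4 lower and 2 did not pass, with a median log2 change of -0.07. That is 25% higher and 50% lower, against 34.4% and 28.6% of all genes. Without control 3, 2 were higher and 5 lower, with a median of -0.10. The lower calls were led by small subunits. Uqcr11 had 8430.1, 8757 and 8044 scaled reads in knockout and 14873, 13325 and 12841 in control, and fell by 0.70 ± 0.05 (log2, limma adjusted p = 7.91e-08). Uqcrb, a subunit that contacts the coenzyme Q pocket, had 9546, 9351 and 9528 scaled reads in knockout and 14071, 14396 and 14643 in control. Uqcrb fell by 0.60 ± 0.03 (log2, limma adjusted p = 2.22e-10). Neither gene had overlapping groups, and 25.5% of the 50-base words of Uqcrb are shared with the predicted gene Gm16089, so its reads are uncertain.

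The large core proteins of complex III had small changes. Uqcrc1 had 15387, 16063 and 15331 scaled reads in knockout and 17185, 16571 and 16229 in control, and fell by 0.10 ± 0.03 (log2, limma adjusted p = 0.0191). The Uqcrc1 call was lost without trend and robust estimation and when knockout 1, knockout 3 or control 1 was left out, and it reversed net of neighbours (0.15). Uqcrc2 had 22128, 22144 and 22672 scaled reads in knockout and 20645, 20810.5 and 20072 in control, and rose by 0.12 ± 0.03 (log2, limma adjusted p = 0.00208). Groups did not overlap in either gene, and net of neighbours the change of Uqcrc2 was 0.03 and did not pass. Uqcr10, a small subunit, had 11869.5, 12249 and 11823 scaled reads in knockout and 11259, 11343 and 10209.8 in control, and rose by 0.13 ± 0.04 (log2, limma adjusted p = 0.00798). That call was lost with equal totals, without trend and robust estimation, in edgeR and in DESeq2, and the value was -0.02 net of neighbours. The Rieske iron-sulfur protein gene Uqcrfs1, named after its value was seen, had a log2 change of -0.05 and did not pass.

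Complex IV, cytochrome c oxidase, is known for subunits with isoforms for different tissues. Of 13 members in the table, 11 were tested, and 2 were higher, 5 were lower and 4 did not pass. Higher and lower shares were 18.2% and 45.5%, against 34.4% and 28.6% of all genes. The median log2 change was -0.03. Without control 3 the counts were again 2 and 5, with a median of -0.06. The muscle and heart isoform genes Cox6a2 and Cox7a1 had at most 8.94 scaled reads in any library, and Cox4i2, Cox6b2, Cox7b2, Cox8b and Cox8c were not listed in the table.

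Cox7a2, the general partner of Cox7a1, had 14654, 15315 and 16087 scaled reads in knockout and 21336, 21939 and 20031 in control. Cox7a2 fell by 0.46 ± 0.04 (log2, limma adjusted p = 1.12e-07), the lowest change in complex IV, with no overlap of groups. Its relative Cox7a2l, known as a factor that joins complexes III and IV in supercomplexes, had 7622, 7522 and 7363 scaled reads in knockout and 7801, 7218 and 7423 in control. Cox7a2l did not pass (log2 change 0.00 ± 0.04, limma adjusted p = 0.918), and its groups overlapped.

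The other lower complex IV subunits were Cox6c, Cox5a, Cox7b and Cox4i1. Cox6c had 11759.7, 12303 and 11992 scaled reads in knockout and 15641, 15931 and 15068 in control, and fell by 0.37 ± 0.03 (log2, limma adjusted p = 8.69e-08). Cox5a had 7458, 7590.2 and 7792 scaled reads in knockout and 10199, 9855 and 9091 in control, and fell by 0.35 ± 0.04 (log2, limma adjusted p = 1.7e-06). In both genes every knockout library lay below every control library. Cox7b had 29609.5, 30735 and 30291 scaled reads in knockout and 33003, 33079 and 31178 in control, and fell by 0.10 ± 0.03 (log2, limma adjusted p = 0.012). The Cox7b call was lost without knockout 1, without control 2, net of neighbours, and with neither trend nor robust estimation. Cox4i1 had 27193, 27494 and 27657 scaled reads in knockout and 30641, 29665 and 27402 in control, and fell by 0.09 ± 0.04 (log2, limma adjusted p = 0.0478). The Cox4i1 groups overlapped, and the call was lost when any 1 of 5 libraries was left out, all but control 3.

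Higher in complex IV were Cox8a and Cox7c. Cox8a had 15763, 16303 and 15052 scaled reads in knockout and 14937, 13798 and 13324 in control, and rose by 0.16 ± 0.04 (log2, limma adjusted p = 0.00323). Cox7c had 14874, 15234 and 14338 scaled reads in knockout and 13588, 13700.5 and 13147 in control, and rose by 0.14 ± 0.03 (log2, limma adjusted p = 0.00189). Neither had overlapping groups, both calls were lost in edgeR and DESeq2 on recovered reads, and 22.1% of the words of Cox7c are shared with Gm10012. Cox6a1 had 11502, 11330.4 and 11091 scaled reads in knockout and 12672, 11011 and 10902 in control, and Cox6b1 had 18564, 19168 and 19065 in knockout and 19508, 19397 and 18916 in control. Their log2 changes were -0.02 ± 0.05 and -0.03 ± 0.03, and neither passed (limma adjusted p = 0.689 and 0.476).

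Complex V, the ATP synthase, had 15 tested subunits, of which 3 were higher, 5 lower and 7 did not pass, with a median log2 change of -0.05. That is 20% higher and 33.3% lower, against 34.4% and 28.6% of all genes. Without control 3, 3 were higher and 7 lower, with a median of -0.07. Subunits of its catalytic head moved in opposite directions. Atp5b, the catalytic beta subunit, had 138223, 141700.0 and 139943 scaled reads in knockout and 199203, 196073 and 191947 in control. Atp5b fell by 0.48 ± 0.03 (log2, limma adjusted p = 1.05e-09), with tight groups that did not overlap. Atp5a1, the alpha subunit that alternates with beta in the head, was higher by 0.17 (log2) and was named after its value was seen. Per length, Atp5b over Atp5a1 was 0.899, 0.882 and 0.903 in the knockout libraries and 1.44, 1.41 and 1.38 in the control libraries. The ratio was thus lower in knockout. Which of these genes stands higher depends on the annotated exon length, which counts rare long isoforms in full. In scaled reads, Atp5b lay above Atp5a1 in every library.

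Atp5d, the delta subunit of the central stalk, had 13769, 14647 and 13698 scaled reads in knockout and 21561, 19643 and 19279.6 in control, and fell by 0.52 ± 0.04 (log2, limma adjusted p = 5.25e-08). Atp5o, the peripheral stalk subunit known as OSCP, had 33215, 34009 and 33085 scaled reads in knockout and 24517, 24161 and 23501 in control. Atp5o rose by 0.47 ± 0.03 (log2, limma adjusted p = 2.23e-09), and all knockout libraries lay above all control libraries. The predicted gene Gm15976 overlaps 47.9% of the exon length of Atp5o, so their reads cannot be told apart without strand. Atp5f1, another subunit of the peripheral stalk, named after its value was seen, was lower by a log2 change of -0.44, so stalk subunits also differed in direction.

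The c ring of the ATP synthase is encoded by Atp5g1, Atp5g2 and Atp5g3, whose mature proteins are the same. Atp5g1 had 9956, 9965 and 10689 scaled reads in knockout and 11064, 10107 and 9122 in control, groups that overlapped, and its log2 change of 0.02 ± 0.06 did not pass (limma adjusted p = 0.814). Atp5g2 had 6226, 6736 and 6666 scaled reads in knockout and 9788, 9337 and 8759.9 in control, and fell by 0.51 ± 0.04 (log2, limma adjusted p = 7.47e-08). Atp5g3 had 32302, 33937 and 33978 scaled reads in knockout and 29570.5, 29546 and 26676 in control, and rose by 0.23 ± 0.04 (log2, limma adjusted p = 0.000156). Atp5g2 and Atp5g3 moved in opposite directions without overlap of groups. Of the c ring transcripts per kb, Atp5g2 made up 18.1% to 18.6% in the knockout libraries and 26.3% to 27.1% in the control libraries, and Atp5g3 made up 71.7% to 72.1% and 62.6% to 64.0%. The size of each share depends on annotated exon length, which counts rare long isoforms in full. In scaled reads, Atp5g1 lay above Atp5g2 in every library. Of the words of Atp5g2, 38.3% are shared with the predicted gene Gm10175.

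**Figure D2:**
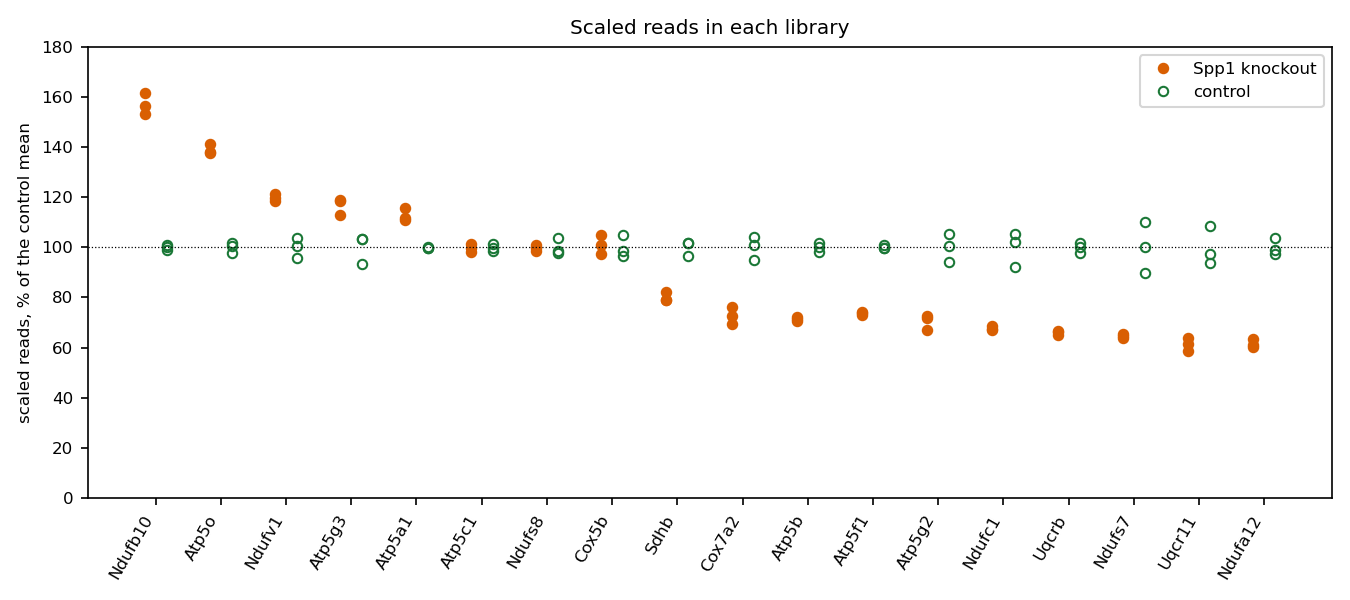
Scaled reads of 18 genes in each library, as a percent of the control mean of that gene, with filled points for the 3 Spp1 knockout libraries and open points for the 3 control libraries. The genes were picked after their values were seen to show both directions and the middle, from Ndufb10 above the control libraries to Ndufa12 below them.

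The assembly and associated factors held the lowest log2 change of all members. Of 9 tested, 4 were higher, 2 lower and 3 did not pass, with a median log2 change of 0.09. Higher and lower shares were 44.4% and 22.2%, against 34.4% and 28.6% of all genes. Ndufaf3, an assembly factor of complex I, had 704.0, 720.1 and 713.5 scaled reads in knockout and 1305, 1231 and 1153 in control, and fell by 0.78 ± 0.06 (log2, limma adjusted p = 9.78e-09). Ndufaf4, which acts with Ndufaf3 in human cells, had 7151, 7409 and 7419.5 scaled reads in knockout and 5537, 5986 and 5997 in control. Ndufaf4 rose by 0.33 ± 0.04 (log2, limma adjusted p = 1.56e-06). Groups did not overlap in either, so these partners moved in opposite directions.

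Ndufaf5, an enzyme that modifies Ndufs7 during assembly, had 1559.7, 1657 and 1789 scaled reads in knockout and 1312, 1330.4 and 1298 in control. Ndufaf5 rose by 0.34 ± 0.05 (log2, limma adjusted p = 3.16e-05), while Ndufs7 itself was lower. Atp5sl, which has an ATP synthase name but is known in human cells as a complex I assembly factor, had 782.4, 776.5 and 767.1 scaled reads in knockout and 602.6, 688.5 and 645.2 in control. Atp5sl rose by 0.27 ± 0.06 (log2, limma adjusted p = 0.00148), again without overlap of groups.

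Levels can be set side by side only per length, here mean scaled reads per kb of annotated exon, which counts rare long isoforms in full. The highest members in knockout were Atp5a1 at 36934, Ndufa4 at 34138 and Atp5b at 33032, and in control the same genes stood at 32780, 36231 and 46198. Next came small subunits of complex IV, Cox6b1 at 26741 in knockout and 27223 in control, Cox7b at 24886 and 26705, and Cox8a at 25373 and 22648. These genes were set in this order after their values were seen, and neighbours in it differ in counted length.

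**Figure D3:**
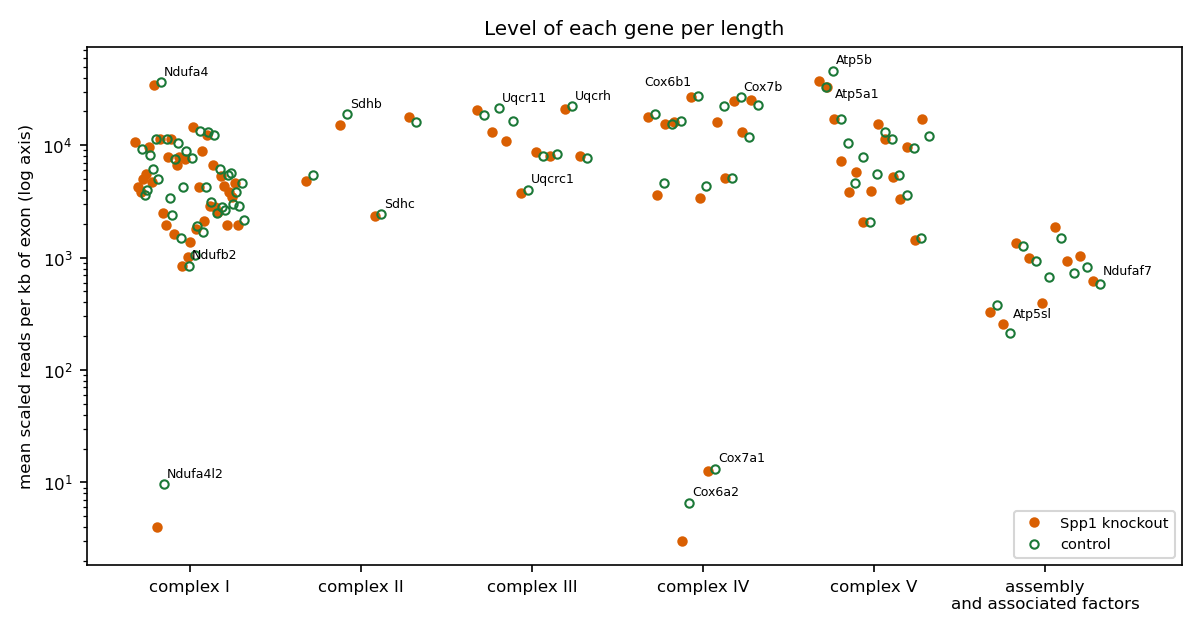
Mean scaled reads per kb of exon (log axis) of each of the 87 members by complex, filled for Spp1 knockout and open for control, with 3 libraries in each group. The isoforms Ndufa4l2, Cox6a2 and Cox7a1 sit far below the other genes, and Atp5b in control is the highest point.

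Summed over the 87 members, the chain took 1.53% to 1.57% of scaled reads in the knockout libraries and 1.65% to 1.77% in the control libraries, without overlap. The mean sum in knockout was 93.1% of that in control. Atp5b alone made up 62.1% of the difference, and without it the share was 1.353% to 1.387% in knockout and 1.404% to 1.503% in control, with control 3 the lowest control library.

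Members with large changes lay among genes that changed the same way. For each gene, the median log2 change of up to 25 tested genes on each side was taken, without the gene itself, a window chosen with the data in hand. Across genes the members' changes and their neighbours' medians had Pearson's r = 0.81 and Spearman's rho = 0.58 (n = 84), and all tested genes with neighbours had r = 0.29 and rho = 0.31 (n = 15235). Genes of one region share neighbours and all rest on the same 6 libraries, so these are descriptions.

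Where the neighbours' median was below -0.3, 12 of 12 members were lower, with a median log2 change of -0.50. In the same surroundings 75.5% of 1442 genes were lower, with a median of -0.45. Where the neighbours' median was above 0.2, 3 of 3 members were higher, against 61.8% of 437 genes. In between lay 69 members, of which 18 were higher and 18 lower, each 26.1%, with a median log2 change of 0.00. Of the 13356 genes in that range, 36.8% were higher and 24.1% lower, with a median of 0.05. The edges of these ranges were set with the data in hand.

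**Figure D4:**
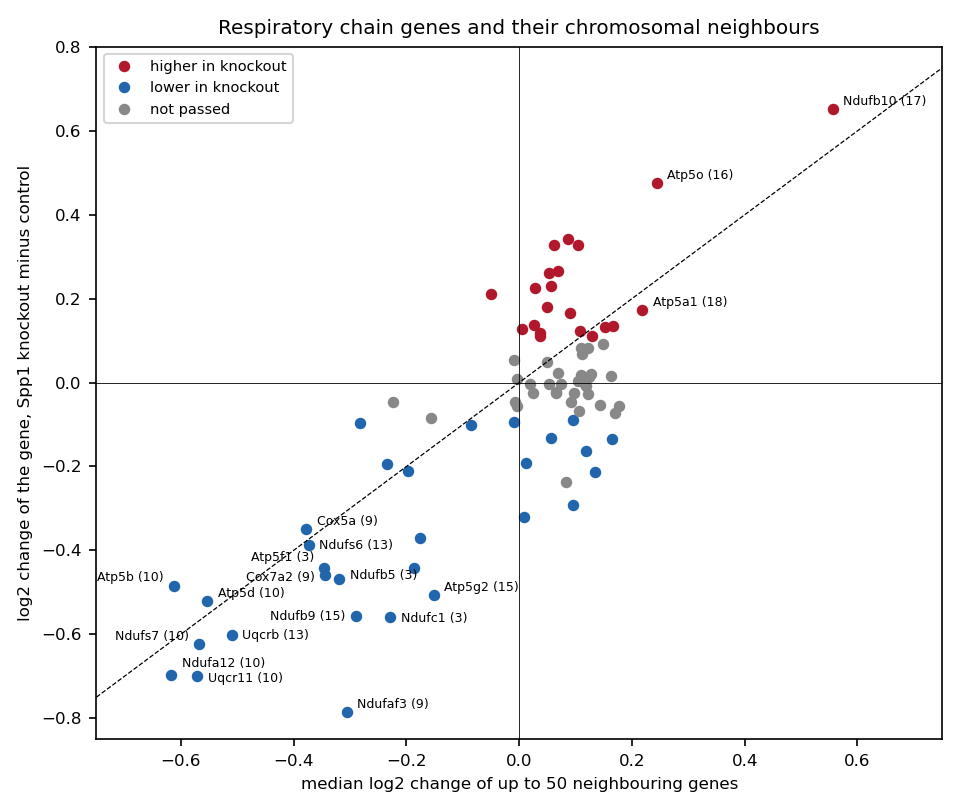
Log2 change of each tested member (y axis, Spp1 knockout minus control) against the median log2 change of up to 50 neighbouring genes (x axis), with chromosomes in parentheses and a dashed line where they are equal. All 12 members whose neighbours' median was below -0.3 lie below 0, with Ndufa12 and Uqcr11 at the lower left, and Ndufb10 lies at the upper right.

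All 5 tested members on chromosome 10 were lower (Atp5b, Atp5d, Ndufa12, Ndufs7 and Uqcr11), where 84.9% of 690 tested genes were lower and the median over genes was -0.58 (log2). All 4 on chromosome 15 were lower (Atp5g2, Cox6c, Ndufa6 and Ndufb9), where 56.0% of 541 genes were lower and the median was -0.19. All 3 on chromosome 3 were lower (Atp5f1, Ndufb5 and Ndufc1), where 52.7% of 841 genes were lower and the median was -0.24. Members are listed here by chromosome after their values were seen. These chromosomes held 12 of the 30 lower members and, by the way they were picked, none of the 21 higher ones. The matching share of all lower genes was not taken, and 52.7% to 84.9% of genes on each of these chromosomes were lower. On chromosome 9, where 50.2% of 828 genes were lower (median -0.16), 4 of 6 members were lower and 1, Sdhd, was higher. On chromosome 13, where 43.4% of 532 genes were lower (median -0.10), 3 of 7 members were lower and 1, Cox7c, was higher. Chromosomes 10, 15 and 3 held the lower partners named above, Atp5b, Atp5g2 and Atp5f1, while Atp5a1, Atp5o and Atp5g3 lie on chromosomes 18, 16 and 2. What these regions share between the samples was not tested.

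Net of the neighbours' median, 50 members passed, 16 higher (against 29.2% of all genes) and 34 lower (against 28.2% of all genes), which is 59.5% of members against 57.4% of the 15235 genes with neighbours. The median size of change went from 0.132 to 0.113 over members and from 0.246 to 0.208 over all genes. In complexes I and IV it rose, from 0.119 to 0.125 and from 0.101 to 0.106. A log2 change above 0.5 in size was held by 10 of 84 members as fitted and by 0 net of neighbours. Over all genes the numbers were 3471 of 15307 and 2908 of the 15235 with neighbours. Atp5b came to 0.10 (limma adjusted p = 0.0265), Atp5d came to 0.00 (0.973) and Ndufb10 to 0.08 (0.0503). The calls of Ndufs7 (-0.08, limma adjusted p = 0.17), Cox7a2 (-0.09, 0.069) and Sdhd (0.005, 0.921) were also lost. Other members kept a change of their own on this measure, among them Ndufaf3 at -0.49 (limma adjusted p = 4.78e-07), Sdhb at -0.36 (3.12e-08), Atp5g2 at -0.32 (3.34e-05) and Atp5o at 0.23 (7.85e-06).

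Genes that serve the chain without being subunits were taken as lists. Over all genes tested, 34.4% were higher and 28.6% lower. Of 14 tested complex I assembly factors, 6 were higher (42.9%) and 1 lower (7.14%), a list that holds the 7 Ndufaf members. Ecsit was the highest at 0.36 and Ndufaf3 the lowest. Complex II assembly factors had 2 of 4 higher and none lower, Sdhaf1 at 0.26 and Sdhaf3 at 0.22. Complex III assembly factors had 4 of 6 higher and 1 lower, with Bcs1l at 0.40, which inserts the Rieske protein, Ttc19 at 0.23, and Lyrm7 at -0.49 (all log2).

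Complex IV assembly factors split evenly, 9 higher and 9 lower of 23, or 39.1% each, against 34.4% and 28.6% of all genes. Sco1, a copper chaperone, rose by 0.60 and Cox10, which makes the haem of complex IV, rose by 0.50, while Higd1a, a gene induced by low oxygen, had a log2 change of -0.84 and Cox20 one of -0.46. Of 6 complex V factors, which include Atp5s and Atp5sl, 3 were higher and 2 lower, with Tmem70 at 0.18 and the ATP synthase inhibitor Atpif1 at -0.31. Atp5s was at -0.21, with groups that overlapped. Coenzyme Q synthesis and cytochrome c had 7 higher and 5 lower of 13, or 53.8% and 38.5%. Coq5 at 0.60 and Pdss1 at 0.46 were the highest, and Adck3 at -0.90 and Coq10a at -0.76 the lowest (log2).

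The 13 mitochondrially encoded subunits had 4 higher and 5 lower, or 30.8% and 38.5%, against 34.4% and 28.6% of all genes. These genes took 2.75% to 2.90% of scaled reads in the knockout libraries and 2.83% to 3.04% in the control libraries, ranges that overlapped. The highest changes were mt-Nd5 at 0.43 and mt-Co1 at 0.17, and the lowest were mt-Nd6 at -0.85 and mt-Atp6 at -0.51 (log2). The strand setting of the counting is not given, and mitochondrial genes abut or overlap each other.

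Of 13 regulators of mitochondrial biogenesis, 9 were higher (69.2%, against 34.4% of all genes) and 2 lower (15.4%, against 28.6%). The median log2 change was 0.23. Their median size of change, whatever its sign, was 0.25, against 0.13 over the members and 0.25 over all genes tested. Ppargc1a, the coactivator PGC-1 alpha, had 2329.6, 2171 and 2398 scaled reads in the knockout libraries and 995.3, 1013 and 960.1 in the control libraries. Ppargc1a rose by 1.21 ± 0.05 (log2, limma adjusted p = 2.08e-11). Pprc1, a related coactivator, had 9164, 8968 and 8971 scaled reads in knockout and 4391, 4479.5 and 5353 in control, and rose by 0.94 ± 0.07 (log2, limma adjusted p = 6.12e-07). Groups did not overlap in either, while the median over the tested members was -0.03.

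The lower regulators both lie on chromosome 10. Tfam, which packs and transcribes mitochondrial DNA, had 4854, 5023 and 5282 scaled reads in knockout and 7283, 7427 and 7398 in control, and fell by 0.55 ± 0.04 (log2, limma adjusted p = 3.96e-09). Polrmt, the mitochondrial RNA polymerase, had 2386, 2440.4 and 2354 scaled reads in knockout and 2909.6, 2609 and 2949.5 in control, and fell by 0.24 ± 0.05 (log2, limma adjusted p = 0.000428). Groups did not overlap in either. Net of their neighbours, Tfam was at 0.09 (limma adjusted p = 0.064) and Polrmt at 0.34 (1.04e-06), while Ppargc1a was at 1.17 (2.75e-13).

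**Figure D5:**
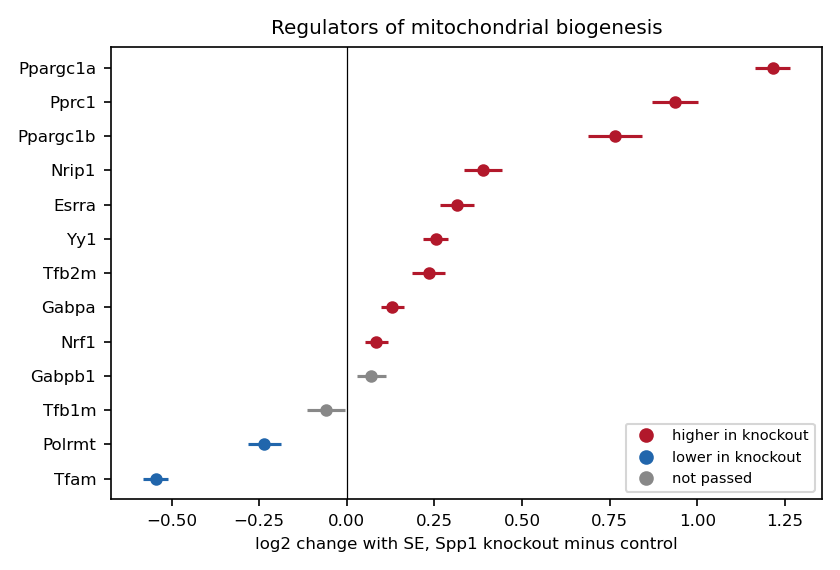
Log2 change of the 13 regulators of mitochondrial biogenesis, Spp1 knockout minus control, with the SE from limma (3 libraries in each group). The coactivators Ppargc1a, Pprc1 and Ppargc1b are the highest, and Polrmt and Tfam are the ones that were lower by the test.

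Reads of 8 members are uncertain, since over 20% of their exon length or 50-base words are shared with another gene: Ndufa13, Ndufaf2, Ndufb6, Ndufs5, Uqcrb, Cox7c, Atp5g2 and Atp5o.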

How the data were processed

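The deposited values are of the unit signal: the authors scaled read counts with DESeq, per the series' design text. Tools named in the submitters' processing notes, with no role or order, are STAR 2.5.0a, cutadapt 1.6, DESeq and HTSeq 0.5.3, and the build is mm10. Annotation release, strand setting and any filter: not given in the sources used here. Dividing each column by its smallest value gave whole numbers (100% within 0.001), which were taken as reads. The recovery was not accepted for knockout 2 by a check of units, so edgeR 4.0.16 and DESeq2 1.42.0 used 5 libraries.

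Knockout and control were compared over the whole table in limma 3.58.1 (R 4.3.3) on log2(value + 1), for genes with at least 10 scaled reads in at least 3 of 6 libraries, with trended and robust variance, two-sided, Benjamini-Hochberg adjustment over all genes tested and a threshold of 0.05. Log2 changes of low genes are understated on this scale. With 3 libraries a group, no exact permutation test can pass this threshold. The test was checked on simulated data. GENCODE M21 (GRCm38, which mm10 is) gave positions and exons, and all 87 members matched by ID. Promoters came from RefSeq GRCm38.p6, where 73 members matched.

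Members and lists were chosen with earlier results of these data known. Genes were named by a rule: the Sdh genes, the isoform families, up to 3 higher and 3 lower calls of largest change in each complex by name, up to 2 and 2 in each other list, and Spp1. Members outside this rule are said to have been named after their values were seen. The result of 1 member, counted in the totals, is not reported here.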

Additional observations from a re-analysis of the deposited data

How the results depend on the processing

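Counts and medians of members, in all and per complex, kept their direction and stayed within 1.5 times the full count, or within 1 SD of replicates for medians, in all alternatives but those given here. Against a change of 1.2-fold, added after the data were seen, 3749 genes, 18 members and 8, 0, 2, 2 and 5 subunits of complexes I to V passed. Without trend and robust estimation complex IV had 4 calls. Net of neighbours complex II had 1 call, and the medians of complexes I to IV were -0.072, -0.021, 0.0034 (reversed) and -0.10. With equal totals the median was -0.075 over members and -0.074, -0.17, -0.12, -0.075 and -0.095 in complexes I to V, and with edgeR -0.074, then -0.078, -0.17, -0.11, -0.071 and -0.084. DESeq2 gave -0.062 over members. Leaving out each library gave 8764 to 9310 genes, 45 to 59 members, and 20 to 24, 3 to 4, 4 to 7, 5 to 7 and 7 to 10 subunits of complexes I to V. The medians then ran from -0.058 to -0.014 over members, and from -0.054 to -0.010, -0.14 to -0.11, -0.095 to -0.048, -0.063 to -0.017 and -0.065 to -0.034 by complex. Of 561 values of named members under alternatives, 498 kept direction and side of the threshold, 32 lost the call, 10 gained one and 21 reversed. Net of neighbours the reversed values were Ndufa4 0.13, Sdha 0.021, Uqcr10 -0.021, Uqcrc1 0.15, Cox5a 0.025, Atp5b 0.098, Cox7a2l -0.14 and Atp5g1 -0.089. Cox7a2l was -0.016 with TMM, -0.045 with equal totals, -0.034 in edgeR and -0.022 in DESeq2, and Atp5g1 was -0.0015 with TMM, -0.030 with equal totals and -0.0039 in edgeR. Leaving out a library, Cox7a2l ran from -0.021 to 0.035, Atp5g1 from -0.052 to 0.087 and Cox6a1 from -0.063 to 0.045. Causes were not tested.

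Deviations of same-numbered knockout and control libraries from their group means had correlations of -0.107, -0.244 and -0.038. Deviations within a group depend on each other, so these values cannot show if the numbers pair samples. With the replicate block 49 members passed, 20 higher and 29 lower, and 9289 genes. Depth was not varied. The lowest count of a tested member was 577 reads.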

Other observations

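The 3 pseudogene names left out of the members had few scaled reads. Atp5l-ps1 had 10.5, 13.8 and 15.6 in the knockout libraries and 12.5, 23.2 and 9.76 in the control libraries. Atp5k-ps2 had 9.41, 14.8 and 2.93 in knockout and 7.31, 16.99 and 15.5 in control. Atp5l2-ps had 42.9, 37.6 and 48.8 in knockout and 63.7, 68.0 and 48.8 in control.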
